A study of Mus musculus with 12 samples.

Results

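The 5' untranslated region (5' UTR) is the stretch of an mRNA between its cap and its start codon, and the chimeric eCLIP peaks that fall there in mouse muscle are described here. A peak was counted when its midpoint lay in a 5' UTR of a protein-coding GENCODE M21 transcript on its own strand and in no coding sequence (CDS) or 3' UTR on that strand. No measured value entered this choice. Of 713343 peaks listed in the 4 total immunoprecipitated libraries, 22717 met it, against 290197 in CDS and 98365 in 3' UTRs.

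In chimeric eCLIP, AGO2 is cross-linked to the RNA it holds and pulled down, a microRNA can be joined to its target by ligation, and a size-matched input serves as the reference. All libraries came from the tibialis anterior (TA) muscle of 6-month-old male mice, either wild type (WT, labelled C57BL/6) or carrying a CRISPR deletion within the mir-486 hairpin of the Ank1 locus (mir-486 KO, labelled FVB N/J). Each of the 2 library sets held 1 WT and 1 KO total immunoprecipitate, each with an input, named WT 1, KO 1, WT 2 and KO 2 by set. The methods state that the KO was backcrossed to C57BL/6J, which the strain labels do not show, so genotype and labelled strain cannot be told apart. The methods count more muscles per genotype than there are libraries and state that the experiment was done in duplicate, but do not say how muscles map to the sets, so a spread over libraries may be technical. Libraries enriched for miR-486 itself were not analysed here.

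Argonaute proteins carry a microRNA whose seed, bases 2 to 8, pairs with a complementary word in a target mRNA. Most known sites that lower mRNA or protein output lie in 3' UTRs, where ribosomes do not pass. In the 5' UTR the scanning small ribosomal subunit moves from the cap to the start codon, and the region is better known for upstream open reading frames, for the 5' terminal oligopyrimidine tract of ribosomal protein mRNAs and for the iron-responsive element of the ferritin mRNAs. The main microRNAs of skeletal muscle are the miR-1/miR-206 and miR-133 families.

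The sequences that carry the main result are the seeds of 5 microRNA families and the 5' UTR sites that hold a complementary word. The mature microRNAs are from RefSeq (GRCm38.p6), 5' to 3', with the seed in capitals.
miR-206-3p: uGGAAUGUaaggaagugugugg
miR-133b-3p: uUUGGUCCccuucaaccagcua
let-7a-5p: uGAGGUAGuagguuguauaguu
miR-29a-3p: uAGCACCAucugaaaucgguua
miR-30a-5p: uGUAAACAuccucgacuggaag

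A peak is called enriched below when the deposited log2 fold of its reads over input was at least 3 and the deposited −log10 p at least 3. The sites shown next were chosen after their values were seen, as those that were enriched in at least 2 libraries and hold the 7-nt word complementary to a seed. Words that lie in CDS or outside 5' UTR exons were left out of the display (Musk, Cct5 and a word of Mapkap1). So was the miR-29 word of Hes1, which stands beside its let-7 word. Capitals mark the word, the strand is that of the gene, and the build is GRCm38. The first set holds ACATTCC, the word of miR-1/miR-206, and is shown because this family had the highest share of words in enriched 5' UTR peaks on the mean over libraries, though not in each library. The seeds of miR-486a-5p and miR-378a-3p were not searched.
Ccnk, first 5' UTR exon, chr12:108179800-108179829 (+): gtagttccccgACATTCCacctccaagatg
Ccnk, next to the start codon, chr12:108186372-108186401 (+): ttaggattacaACATTCCagagtcccactg
Gpr4, chr7:19221747-19221776 (+): agtcttctagaACATTCCatcccattggta
Atf4, chr15:80256257-80256286 (+): tcgagttaagcACATTCCtcgaatccagca
Esr1, chr10:4710196-4710225 (+): atcattcgagcACATTCCttccttccgtct
Ecm2, chr13:49504890-49504919 (+): aacacttttcaACATTCCcttctcttcttt
Abra, chr15:41869702-41869731 (-): ctctctcaaccACATTCCcctttagctggt

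The next set holds GGACCAA, the word of miR-133, then CTACCTC, that of let-7, TGGTGCT, that of miR-29, and TGTTTAC, that of miR-30, 1 to 3 sites each. In Tmod4 and Trmt10b the word crosses the edge of the listed peak, since neighbouring listed peaks often adjoin and split a site.
Tmod4, miR-133, chr3:95124549-95124578 (+): tagaacagacGGACCAActgacaaggggag
Mapkap1, miR-133, chr2:34429590-34429619 (+): tcagctggtatGGACCAAttcacacagatt
Trmt10b, miR-133, chr4:45297148-45297177 (+): gctttggggcgGGACCAActgtgttctctt
Igf2, let-7, chr7:142659235-142659264 (-): tcctcctctatCTACCTCaacaccccattc
Hes1, let-7, chr16:30065377-30065406 (+): gaatcccctgtCTACCTCtctccttggtcc
Trp53inp1, let-7, chr4:11156504-11156533 (+): gcctgccgcagCTACCTCagcacccgcagc
Tox4, miR-29, chr14:52279627-52279656 (+): gtcgctggtagTGGTGCTgtgaagatggag
Col5a2, miR-29, chr1:45503028-45503057 (-): tgtgccggaccTGGTGCTgaaacagactga
Ubl7, miR-30, chr9:57911002-57911031 (+): accagagtgagTGTTTACaccggcggctcg

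Enriched 5' UTR peaks held a miR-1/miR-206 word more often than the other 5' UTR peaks of the same library, in all 4 libraries. The word was searched on the strand of the gene in each peak extended by 25 nt on both sides. Of the 14 enriched sites with this word, 12 held it wholly within a 5' UTR, and at 2, Musk and Icmt, it lay in CDS. The libraries counted some of the same sites, since 3 of the 10 sites enriched in all 4, at Ccnk and Gpr4, held the word. In WT 1 it stood in 8 of 148 enriched peaks (5.41%, 95% Wilson interval 2.76 to 10.3) against 1.07% of the others. WT 2 had it in 9 of 101 (8.91%, 4.76 to 16.1) against 0.823%, KO 1 in 5 of 29 (17.2%, 7.6 to 34.5) against 0.824%, and KO 2 in 7 of 88 (7.95%, 3.91 to 15.5) against 0.902%. In each library the interval of the enriched peaks lay above the share of the rest. The mean difference was 8.97 percentage points (SD 5.21, n = 4 libraries, higher in 4 of 4). The exact paired sign-flip test over libraries, two-sided, gave p = 0.125, the smallest that 4 libraries allow, and 0.375 after Benjamini-Hochberg adjustment over 12 families, so no family could pass 0.05.

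Words of miR-133 were also more frequent in enriched 5' UTR peaks in 4 of 4 libraries, with a mean of 5.82% against 1.2% of the other peaks. The difference was 4.62 points (SD 2.65, adjusted p = 0.375 by the same exact test). The counts were 6 of 148 in WT 1, 9 of 101 in WT 2, 2 of 29 in KO 1 and 3 of 88 in KO 2. In KO 2 the Wilson interval, 1.17 to 9.55, covered the 1.22% of the other peaks. Of the 13 enriched sites with the miR-133 word, 4 had it touching CDS. The let-7 word stood in 6.08% and 5.68% of the enriched peaks of WT 1 and KO 2 but in 1 of 101 of WT 2 and 0 of 29 of KO 1. Taking 3 counts as the limit, the count of 0 allows up to 10.3% (Wilson upper bound 11.7%). For miR-29 the share was highest in KO 2, 9.09% against 1.86% of the others, and 0 of 29 in KO 1. The miR-30 word was rare in both, with 1 enriched peak in each library. Words of any of these 5 families stood in 18.9% of the enriched 5' UTR peaks of WT 1, 22.8% of WT 2, 27.6% of KO 1 and 25% of KO 2. Among the other 5' UTR peaks the shares were 6.67%, 5.14%, 5.44% and 5.46%, so that enrichment over input went with a mean rise of 17.9 points (SD 4.19). The other peaks were not matched in base composition. Enriched peaks held less G and C (mean difference of medians -7.33 points), and the part of this in the word shares was not tested. The 5 families were pooled with earlier results of these data known, and let-7 and miR-29 were higher in 3 of 4 libraries only. Of the other families searched, miR-26, miR-22, miR-27, miR-24, miR-10, miR-126 and miR-21, none was higher in the enriched peaks of all 4 libraries.

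**Figure D1:**
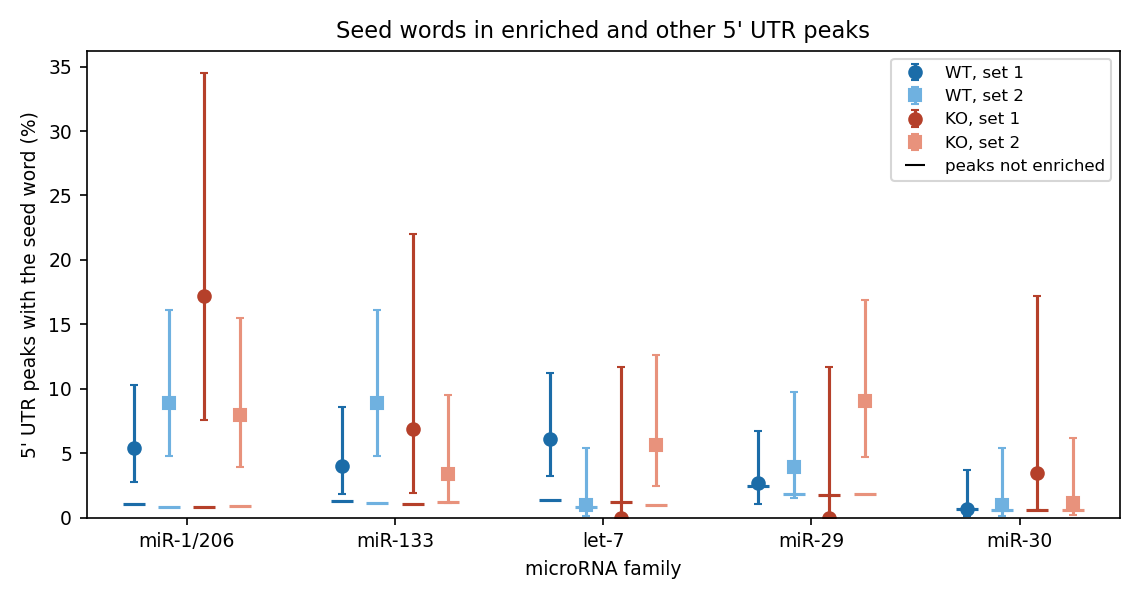
Share of 5' UTR peaks (percent, y axis) holding the 7-nt word complementary to each microRNA seed (x axis), for enriched peaks (points with 95% Wilson intervals) and other peaks (dashes) of each library. For miR-1/miR-206 and miR-133 every point lies above its dash, and for let-7 and miR-29 the KO point of set 1 lies at 0.

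Set beside the other regions, enriched 5' UTR peaks held the miR-1/miR-206 word least often in all 4 libraries. In enriched 3' UTR peaks the miR-1/miR-206 word stood in 18.2% (WT 1), 16.4% (WT 2), 22.4% (KO 1) and 17.4% (KO 2), on average 8.74 points above the 5' UTR (SD 3.23, higher in 4 of 4 libraries, exact sign-flip p = 0.125). Enriched CDS peaks had 8.96%, 12.2%, 18.8% and 12.8%. Across all listed peaks the word was in 0.935% to 1.24% of the 5' UTR peaks, 1.23% to 1.95% of CDS peaks and 2.91% to 4.42% of 3' UTR peaks. The intervals cover counting error only, and neighbouring peaks of a library are not independent.

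Overlapping 5' UTR peaks of the 4 libraries formed 10259 sites in 6634 genes. Recurring enrichment was rare. Of these sites 155 were enriched in 1 library, 30 in 2, 12 in 3 and 10 in all 4, while 10052 were enriched in none. Of the 52 sites enriched in at least 2 libraries, 18 (34.6%, Wilson interval 23.2 to 48.2) held a word of the 5 families, against 30 of 155 (19.4%, 13.9 to 26.3) of the sites enriched once and 525 of 10052 (5.22%, 4.8 to 5.68) of the rest. Among sites listed in all 4 libraries the shares were 34.9% of 43 recurring sites, with a median length of 118 nt, and 9.2% of 1446 sites enriched in no library, with a median of 162 nt. Among those the recurring sites were the shorter ones, whereas over all sites they were the longer, at 114 nt against 91. Words in CDS were counted in all these shares, as at the recurring sites of Musk and Cct5.

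Ccnk encodes cyclin K, the partner of the kinases that phosphorylate the tail of RNA polymerase II, and had 3 of the 10 sites enriched in all 4 libraries. They lie on different 5' UTR exons, the first and last of them shown above. The site in the first exon (chr12:108179796-108179884) had log2 folds over input of 5.38 in WT 1, 4.81 in WT 2, 3.55 in KO 1 and 4.06 in KO 2. The site next to the start codon (chr12:108186374-108186466) had 3.66, 3.93, 3.77 and 3.93, the lowest spread of the 20 leading sites (SD 0.14). On an alternative exon between them (chr12:108182171-108182211) the values were 3.80, 4.72, 3.12 and 4.19. Both outer sites hold the miR-1/miR-206 word, and a peak edge sits on an exon boundary at all of them, so that reads spliced across exons may count at more than 1 of these sites.

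Gpr4, a proton-sensing receptor, was enriched at 1 site 395 nt before its start codon (chr7:19221629-19221909), which also holds the miR-1/miR-206 word. Its log2 folds were 3.96 in WT 1, 4.47 in WT 2, 4.05 in KO 1 and 4.04 in KO 2. The KO values lay between the WT values, and −log10 p was between 4.2 and 22.1.

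The site with the highest mean log2 fold among the 20 lay in 2310002L09Rik (chr4:73950608-73950845), 85 nt before the start codon, with 6.47, 5.05, 4.29 and 5.19 in WT 1, WT 2, KO 1 and KO 2. Nmrk2, the nicotinamide riboside kinase of muscle, had a site 15 nt before its start codon (chr10:81201946-81202031) with 5.37, 3.89, 3.90 and 4.15. Tspyl1, of the nucleosome assembly family, had 4.68, 3.30, 3.31 and 3.23 (chr10:34282206-34282348). In all 3 WT 1 was the highest, and at Nmrk2 and Tspyl1 the other libraries lay close together. None of these sites held a word of the 12 families searched.

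Snx17, a sorting nexin of endosomes, gave 4.77, 3.79, 3.15 and 3.63 in the same order (chr5:31193290-31193468). At this site both KO values lay below both WT values. Ptpa, the activator of a phosphatase, gave 3.04, 3.12, 3.16 and 3.44 (chr2:30416057-30416334), all just above the threshold and with both KO values above both WT values. Igip completed the 10 sites with 4.41, 3.42, 3.80 and 3.61, where the KO values lay between the WT values.

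Of the 12 sites enriched in 3 libraries, 10 were listed in all 4. Among these KO 1 was the library that missed the thresholds at 6 (Tspan8, Gm20390, Igf2, 1700021F05Rik, Mrpl48 and Tox4). Igf2, the fetal growth factor, carried its site 851 nt before the start codon (chr7:142659132-142659467) with 3.10 in WT 1, 5.35 in WT 2, 2.12 in KO 1 and 4.17 in KO 2. WT was above KO in both sets, by 0.98 and 1.18, and the sets stood further apart than the genotypes. Cct5, a subunit of the cytosolic chaperonin, had 5.45, 2.68, 3.46 and 3.66 at 8 nt before its start codon (chr15:31601661-31601778). Ubl7, a ubiquitin-like protein, had 3.50, 2.35, 3.05 and 3.11 at the miR-30 word shown above. Mettl26 gave 2.43, 4.63, 3.90 and 5.46, so that WT 1 was the library below the threshold there.

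Across these 20 sites in 18 genes, WT 1 held the highest value at 14 and KO 1 the lowest at 10. A peak overlapped the CDS at 12 of the 20, and 13 lay within 50 nt of the start codon. Values at the edge of the threshold were close together. In KO 1 the enriched peak with the lowest fold was that of Ubl7 at 3.05, and the highest one just outside was that of Atf4 at 2.979.

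**Figure D2:**
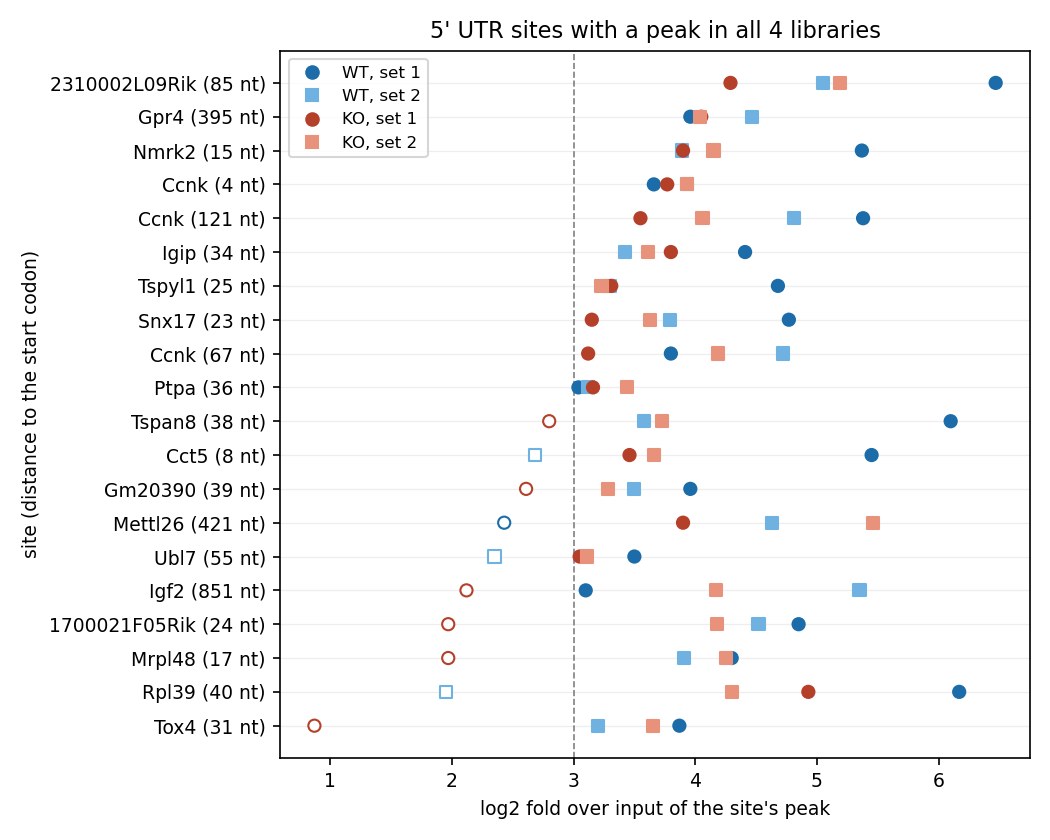
Log2 fold over input (x axis) of the 20 leading 5' UTR sites listed in all 4 libraries (y axis, with the distance in nt to the start codon), by library. Filled symbols are enriched, open symbols are not, and the dashed line is the fold threshold of 3. The upper 10 sites are enriched in all 4 libraries, and WT of set 1 is the highest at 14 sites.

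Seen as a whole, 5' UTR peaks were a small part of each list. They made up 4.2% of the WT 1 list (3882 peaks), 2.97% of WT 2 (7267), 3.57% of KO 1 (4277) and 2.85% of KO 2 (7291). The share averaged 3.58% (SD 0.87) in WT and 3.21% (SD 0.511) in KO, n = 2 each, and was higher in WT by 0.631 points in set 1 and 0.123 in set 2. The exact permutation test, two-sided, gave p = 0.667, where 2 libraries against 2 cannot go below 0.333. Paired by set, the exact sign-flip test gave p = 0.5, the smallest that 2 sets allow. Per Mb of annotated sequence there were 549 to 1030 peaks in 5' UTRs, 1170 to 2810 in CDS and 544 to 909 in 3' UTRs.

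Few 5' UTR peaks were enriched. In WT 1 there were 148 (3.81%), where 3.57% of all listed peaks were enriched. WT 2 had 101 (1.39%, all listed 1.42%), KO 1 had 29 (0.678%, all listed 0.848%) and KO 2 had 88 (1.21%, all listed 1.23%). The share in 5' UTRs was thus near that of the whole list in each library, above it in WT 1 and below it in the other libraries. Peaks in 3' UTRs were enriched more often in every library, at 5.9%, 3.55%, 1.64% and 3.55%, a mean of 1.89 points above the 5' UTR (SD 0.629, n = 4, exact sign-flip p = 0.125, adjusted p = 0.125).

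Against CDS the direction depended on the measure. Enriched peaks made up 3.17%, 1.03%, 0.264% and 0.947% of the CDS peaks, below the 5' UTR in 4 of 4 libraries by a mean of 0.418 points (SD 0.16, exact sign-flip p = 0.125, adjusted p = 0.125). The median log2 fold over input went the other way, at 0.61, 0.06, -0.03 and -0.03 in 5' UTRs and 0.68, 0.21, 0.12 and 0.18 in CDS, a mean difference of -0.14 (SD 0.06, lower in 4 of 4, exact p = 0.125). The difference in enriched peaks turned to -0.0913 points when only peaks lying wholly within 5' UTR exons were counted, which in WT 1 alone were 1.2 points below CDS, and to -0.196 points with a fold threshold of 1. Of the enriched 5' UTR peaks of WT 1, 49.3% overlapped annotated CDS on their strand.

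**Figure D3:**
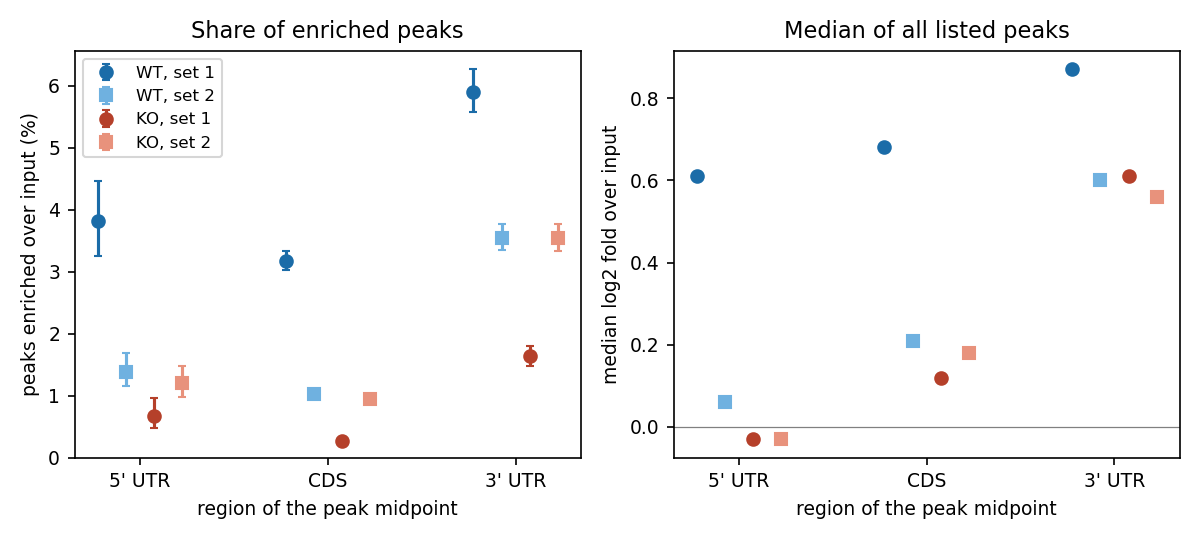
Left, percent of listed peaks enriched over input (y axis, 95% Wilson intervals) by region of the peak midpoint (x axis) in each library. Right, median log2 fold over input of all listed peaks. Of the 3 regions drawn, the 3' UTR is highest in all 4 libraries on both measures, and the 5' UTR lies just above CDS on the left and below it on the right.

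Peaks became more frequent towards the start codon. Dividing each 5' UTR into 5 equal parts along the spliced transcript, the part next to the transcript start held 7.21% (WT 1), 7.29% (WT 2), 9.47% (KO 1) and 7.05% (KO 2) of the peaks, and the part next to the start codon 31.5%, 30.1%, 27.0% and 30.1%. Each part held more peaks than the one before it in all 4 libraries. The median distance to the start codon was 73, 80, 88 and 82 nt (mean 80.8, SD 6.18), in 5' UTRs with a median length of 262 to 270 nt. It rose to a mean of 124 nt over peaks lying wholly within 5' UTR exons.

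Enriched peaks lay nearer to both ends than the others. Their median distance to the start codon was 37, 55, 59 and 54 nt in WT 1, WT 2, KO 1 and KO 2, on average 30.2 nt less than that of the other peaks (SD 5.32, n = 4). The share within 50 nt of the start codon was 66.9%, 44.6%, 44.8% and 43.2% of the enriched peaks, higher than the rest in 4 of 4 libraries by 15.9 points (SD 10.8). Within 50 nt of the transcript start lay 18.2%, 17.8%, 24.1% and 18.2%, against 8.59% to 11.3% of the other peaks. Enriched peaks also held less G and C, with medians of 59.3%, 57.3%, 58.9% and 58.2% against 65.2% to 66.3%, a difference of -7.33 points (SD 0.499, 4 of 4 libraries). They came from shorter 5' UTRs (a median of 167 to 251 nt against 265 to 271). The exact sign-flip p was 0.125 for each of these 5 features and 0.175 after adjustment over the 7 compared. An ATG triplet within the peak and overlap with CDS were higher in 3 of 4 libraries (exact sign-flip p = 0.375).

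**Figure D4:**
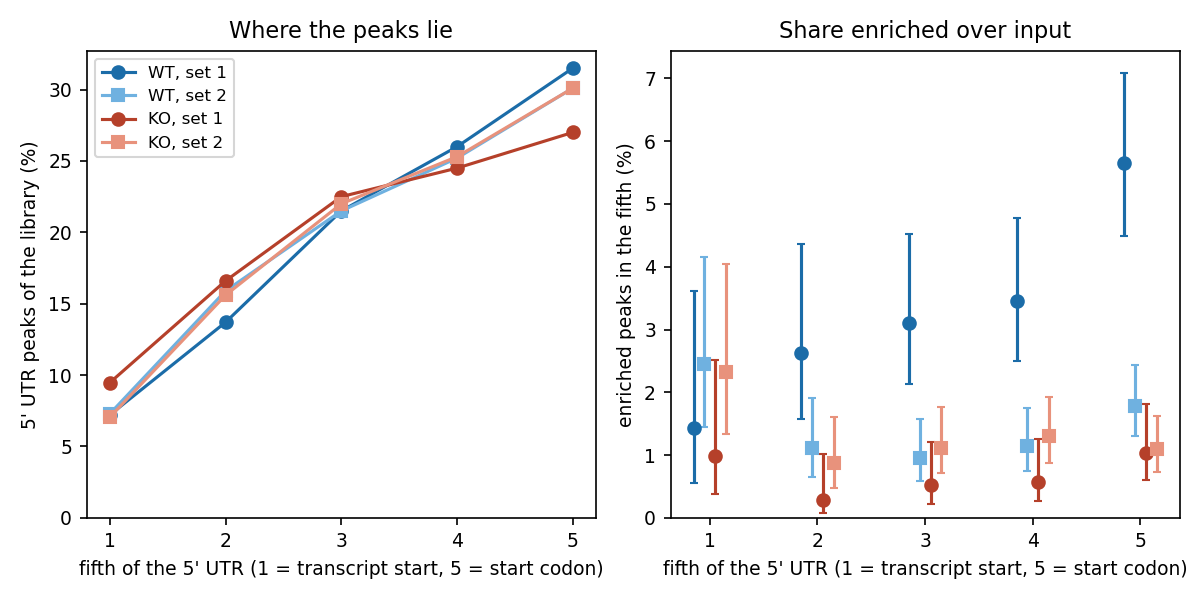
Left, percent of each library's 5' UTR peaks (y axis) in the 5 equal parts of the 5' UTR from transcript start to start codon (x axis). Right, percent of the peaks in each part that were enriched, with 95% Wilson intervals. The number of peaks grows towards the start codon in all libraries, while the enriched share grows steadily in WT of set 1 alone.

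In WT of set 1 the enriched share rose from 1.43% (0.557 to 3.61) in the first part to 5.65% (4.49 to 7.09) in the last. In the WT and KO libraries of set 2 the first part had the highest share, 2.45% (1.44 to 4.15) and 2.33% (1.34 to 4.04). In both of these libraries and in KO 1 the intervals of all parts overlapped.

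The 5' UTR peaks of muscle mRNAs were much further above input in WT 1 than in the other libraries. Nearly all other gene lists also had their highest median in WT 1. A 5' UTR peak was listed for 31.7% of all genes with an annotated 5' UTR (6634 of 20899) and for 45 of 55 sarcomere genes. All genes were counted whether or not expressed in muscle, so lists of expressed genes can exceed this share, here and below. The median log2 fold of the sarcomere peaks was 1.78 in WT 1, 0.22 in WT 2, -0.10 in KO 1 and 0.39 in KO 2. The medians over all 5' UTR peaks were 0.61, 0.06, -0.03 and -0.03. Enriched were 14 of 69 sarcomere peaks in WT 1, from 10 genes, 2 of 79 in WT 2 and 4 of 63 in KO 1, from 1 gene each, and 0 of 68 in KO 2. Over all 5' UTR peaks the enriched shares were 3.81%, 1.39%, 0.678% and 1.21%. CDS peaks of the same genes had medians of 1.0, 0.02, -0.47 and 0.05, so that WT 1 was the highest there too.

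Tmod4, the tropomodulin that caps thin filaments in muscle, led the sarcomere genes with a site in all 4 libraries (chr3:95124530-95124603). These were ranked by the lowest of their 4 log2 folds. The log2 folds of Tmod4 were 3.15 in WT 1, 2.51 in WT 2, 3.25 in KO 1 and 2.77 in KO 2. This places KO 1 above both WT libraries, and the site holds the miR-133 word shown above. Myom2, of the M-band, gave 5.65, 2.23, 1.88 and 2.61, Myl1, a myosin light chain, 4.92, 1.65, 2.10 and 2.01, and Myot 4.02, 2.36, 2.25 and 2.32. At these 3 genes WT 1 stood alone, and WT 2 lay near both KO libraries.

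The same held for energy metabolism. Of 64 nuclear-encoded genes of oxidative phosphorylation 38 had a 5' UTR peak, with medians of 1.92, 0.20, -0.24 and 0.41, and all 11 enriched peaks, from 9 genes, were in WT 1, where 148 of all 3882 5' UTR peaks were enriched. Cox7b, a subunit of cytochrome oxidase, gave 3.89, 1.38, 1.48 and 1.95, and Atp5l, of ATP synthase, 4.63, 0.80, 1.46 and 1.47. Glycolysis and glycogen genes had medians of 2.13, 0.04, 0.23 and 0.45, and again all 7 enriched peaks, from 5 genes, were in WT 1. Ldha, lactate dehydrogenase, gave 4.64, 1.66, 1.56 and 1.87, and Eno3, the muscle enolase, 4.28, 2.11, 1.55 and 2.36. CDS peaks of both lists had their highest medians in WT 1, 1.91 and 1.59.

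Creatine kinase, calcium and triad genes had a 5' UTR peak in 31 of 31 cases, with medians of 1.98, 0.01, 0.23 and 0.24. Casq1, the calcium store of the sarcoplasmic reticulum, gave 5.44 in WT 1 and 2.30, 2.23 and 2.14 in WT 2, KO 1 and KO 2. It holds a let-7 word but was enriched in WT 1 alone. Myofibre markers had a 5' UTR peak in 7 of 8 genes, with a median of 2.60 in WT 1 and between -0.20 and 0.68 elsewhere. Markers of other cell types were listed in small numbers of peaks, for 5 of 6 endothelial, 6 of 6 fibroblast, 3 of 6 macrophage, 4 of 6 red cell, 1 of 5 adipocyte and 1 of 6 nerve genes. Their medians were highest in WT 1 as well, as in endothelial (0.78 against -0.26, -0.04 and 0.00311) and fibroblast genes (1.24 against 0.22, -0.03 and 0.77). Nerve genes had no peak in WT 1. Translation initiation factors gave 0.87 against -0.01, -0.20 and 0.45. Among lists with a WT 1 peak, the Argonaute and microRNA machinery alone went the other way, with its lowest median, -0.58, in WT 1.

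Genes known for regulation through the 5' UTR gave a different picture from list to list. Ribosomal protein and other 5' terminal oligopyrimidine mRNAs were listed in 69 of 88 genes, against 31.7% of all genes, but had medians of 0.46, -0.58, -0.77 and -0.44, below input in all libraries except WT 1 and under the median of all 5' UTR peaks in each. Their CDS peaks did the same, at 0.27, -0.50, -0.79 and -0.55. Enriched were 2 of 60 peaks in WT 1 and 0 of 85 in WT 2. In KO 1 there were 2 of 57 and in KO 2 there were 2 of 81. These peaks were all in Rpl39 or Rpl32. Over all 5' UTR peaks the enriched shares were 3.81%, 1.39%, 0.678% and 1.21%. Rpl39 gave 6.17, 1.95, 4.93 and 4.30, a value that is uncertain because ribosomal protein genes have many processed copies in the genome that can share their reads. Of 41 translation initiation factors 27 had a 5' UTR peak. None of their peaks, 25 to 37 a library, was enriched, where 0.678% to 3.81% of all 5' UTR peaks were. Eif1b gave 1.46, 1.38, 2.38 and 1.43, and Eif5 2.46, 1.23, 1.46 and 1.91.

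Genes with regulatory upstream open reading frames lay above the median of all 5' UTR peaks in every library. Their peaks had medians of 1.20, 0.87, 0.59 and 0.76. Of 17 such genes 12 had a peak in some library, with 7 in WT 1, 11 in WT 2, 10 in KO 1 and 10 in KO 2. Atf4, the transcription factor of the integrated stress response, was close to the threshold throughout, at 3.63 in WT 1, 3.02 in WT 2, 2.98 in KO 1 and 2.96 in KO 2 (mean 3.15, SD 0.32, chr15:80256207-80256345), and is the member with the miR-1/miR-206 word. The site lies 11 nt before the start codon, where an upstream reading frame of this mRNA is known to end within the coding sequence. Odc1, of polyamine synthesis, gave 2.07, 2.05, 2.65 and 2.14. The CDS peaks of these genes had like medians, 1.33, 0.75, 1.12 and 1.13.

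All 6 genes of the iron-responsive element list had a 5' UTR peak, with medians of 2.02, 0.87, 0.67 and 0.47. Ftl1, the ferritin light chain, led them with 3.97, 2.66, 2.40 and 2.89 (chr7:45459584-45459841), and its −log10 p was 400 in WT 2, the highest value the files hold. That site was enriched in WT 1, and another Ftl1 peak in KO 2. Fth1, the heavy chain, gave 1.60, 0.14, 0.04 and 0.29, and Epas1 -1.13, -0.75, -0.94 and -0.50. The members of this list therefore ranged from near the threshold to below input.

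The remaining lists held few enriched peaks, and of all 5' UTR peaks of a library only 0.678% to 3.81% were enriched. Of the muscle transcription factors and splicing regulators 17 of 25 genes had a peak. The 1 enriched peak was in Myod1, among 21 peaks in WT 1. Rbm24, a splicing factor of muscle, gave 1.29, 1.97, 0.98 and 1.62. In the Argonaute and microRNA machinery 13 of 18 genes had a peak, against 31.7% of all genes, expressed in muscle or not. None of these peaks, 10 to 24 a library, was enriched, where 0.678% to 3.81% of all 5' UTR peaks were. Drosha gave 0.87, 1.28, 1.38 and 0.24. Among atrophy and FOXO genes 29 of 36 had a peak. The enriched ones were in the metallothioneins Mt1, 1 of 33 peaks in WT 1, and Mt2, 1 of 53 in WT 2. The lists are described by counts and medians with no test.

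Between genotypes the sets differed. At 1914 sites listed in both libraries of set 1, the log2 fold over input was higher in WT at 75.7%, with a median difference of 1.0 (quartiles 0.08 and 1.99). At 4157 sites of set 2 it was higher in WT at 49.8%, with a median of -0.00341 (quartiles -0.55 and 0.56). The mean over the sets was 0.50 (SD 0.71, n = 2), and the exact sign-flip test over the 2 sets gave p = 1.0, where it cannot go below 0.5. Across the 1586 sites listed in all 4 libraries, Spearman's rho between the differences of the sets was -0.0815, and among the 20 leading sites WT was above KO at 16 in set 1 and at 8 in set 2. The sets share no library, and sites are not independent.

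**Figure D5:**
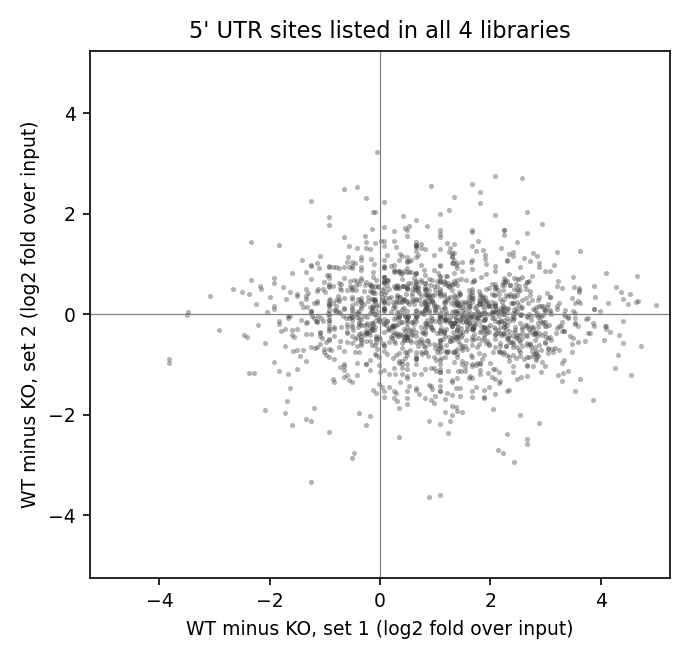
WT minus KO difference in log2 fold over input at the 1586 5' UTR sites listed in all 4 libraries, set 1 on the x axis against set 2 on the y axis, 1 point a site. The cloud is centred right of 0 in set 1 and at 0 in set 2, with no slope (Spearman's rho -0.0815).

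The authors' deposited tables also compare the immunoprecipitates directly, WT over KO at WT peaks and KO over WT at KO peaks. Past a log2 fold of 3 and a −log10 p of 3 were 16 of 3882 5' UTR peaks for WT over KO in set 1 (0.412%, all listed 0.469%) and 3 of 7262 in set 2 (0.0413%, all listed 0.0192%). For KO over WT there were 5 of 4280 in set 1 (0.117%, all listed 0.179%) and 1 of 7295 in set 2 (0.0137%, all listed 0.0144%). The 5' UTR shares of set 1 were below those of the whole lists, and those of set 2 rest on 4 peaks in all. With 1 library a genotype in each set these are counts with no test.

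Of the 16 peaks of set 1, 11 overlapped a listed peak in set 2 and 3 of those had the same sign there. Mt2, a metallothionein and 1 of the 18 miR-486 targets the study lists, was the highest, at 5.37 in set 1 and 1.71 in set 2 (chr8:94172795-94172875, 13 nt before the start codon). Over input the site gave 1.56 in WT 1 and 3.23 in WT 2, and no KO library listed a 5' UTR peak there. Mt1 gave 4.39 and 1.03 (chr8:94179240-94179335), with 3.62, 0.92, 0.97 and 0.60 over input in WT 1, WT 2, KO 1 and KO 2. Neither Mt1 nor Mt2 passed both thresholds of the direct comparison in set 2.

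For KO over WT, Sgca, of the dystrophin-associated sarcoglycan complex, was 3.15 in set 2 and 2.65 in set 1, at 17 nt before its start codon, but only 0.64 over input in KO 2. Coa5, an assembly factor of cytochrome oxidase, was 3.93 in set 1 and 0.37 in set 2, with -0.57 over input in KO 1. Neither site was enriched over input. In the other set the −log10 p was 2.3 for Sgca and 0.672 for Coa5. No 5' UTR peak over input was listed at the Sgca site in KO 1 or at the Coa5 site in KO 2. The overlapping peaks of the other set may thus not be 5' UTR peaks. The 3 WT peaks of set 2 were in Cd52 (4.44), H2-DMb2 (4.21) and Coro1a (3.12), all expressed in leukocytes and named after their values were seen, and none of them overlapped a listed peak in set 1. Over input in WT 2 they gave 3.80, 3.56 and 1.89, and the Cd52 site was the enriched one. Fewer leukocytes in a sample and less RNA or AGO2 binding per cell cannot be told apart in bulk tissue. Macrophage markers had 3 listed 5' UTR peaks in each library of set 2 and 1 in each of set 1, and their part in this result was not tested.

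Of the 18 genes the study lists as miR-486 targets, 15 had a 5' UTR peak in some library and 7 in all 4. Of all 20899 genes, expressed in muscle or not, 6634 and 1593 did. The study chose its 18 targets on these samples, so they are not independent evidence of a direction. An enriched 5' UTR peak was listed for Mt2 in WT 2 and for Tnnc2, the fast troponin C, in WT 1. The median Tnnc2 peak gave 5.14 in WT 1, 1.16 in WT 2, 1.33 in KO 1 and 1.55 in KO 2. Pygm, the muscle glycogen phosphorylase, gave 2.86, 0.70, 0.37 and 1.10, and Ttn, the largest sarcomere protein, had medians of 1.0, -0.40, -1.20 and -0.31 over 18 peaks. Ank1, the host gene of mir-486, had medians of 2.57, 0.88, 1.41 and 1.12 over 7 peaks and none enriched.

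The lists give folds and p-values but no read counts, so the depth behind a peak is unknown. Many peaks share a value, and the 20 most common log2 values held 68.7% of the 5' UTR peaks of WT 1, 43.6% of WT 2, 66.3% of KO 1 and 43.8% of KO 2. The values of set 1 are thus the coarser. Across sites, Spearman's rho of the log2 fold was 0.628 between WT 2 and KO 2 and 0.355 to 0.487 for every other pair of libraries.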

How the data were processed

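Chimeric AGO2 eCLIP peaks of mouse TA muscle were taken from 8 deposited lists: 4 of total immunoprecipitate over input and 4 of immunoprecipitates compared directly. Per the submitters' processing notes the authors used FastQC, UMI-tools, cutadapt, STAR and SAMtools on GRCm38/mm10, and the methods name CLIPper for peak calling. Each file holds the peaks of 1 library. The labels name GENCODE M24, whereas M21 was used here. The authors deposited for each peak a log2 fold, library-scaled reads of one library over the other, and the −log10 of a p-value for that difference, which is 0 wherever the fold is below 0 and at most 400. No counts were given. The direct lists hold the authors' own comparisons and were used as a description.

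Midpoints were set against GENCODE M21 on GRCm38.p6, with CDS before 3' UTR before 5' UTR. Each peak was placed on 1 transcript (APPRIS principal, then basic, then longest CDS). Member peaks overlapping by at least 1 nt on a strand formed a site, whose value in a library is that of its peak with the highest −log10 p. Sites named are those listed in all 4 libraries, ranked by the number of libraries enriched, then by the lowest fold (first 20), up to 4 genes a list, direct peaks with the same sign in the other set, and the study's targets. A direct peak that met this rule is not reported here. The members, lists and tests were chosen with earlier results of these data known. Libraries were compared by exact permutation and exact paired sign-flip tests, two-sided, with Benjamini-Hochberg adjustment. Intervals are Wilson 95% and cover counting error only. Scripts (Python 3.11.15, scipy 1.17.1) were tested on simulated peaks. Alternatives covered the region rule, transcript set, thresholds, overlap, seed word and leaving out each library.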

Additional observations from a re-analysis of the deposited data

Results flagged for a closer look

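The WT minus KO difference in log2 fold over input at the 5' UTR site of Rpl39 was 1.24 in set 1 and -2.36 in set 2, the only 1 of the 20 leading sites where the sets moved more than 1 in opposite directions. With 1 library a genotype in each set, the difference between the sets was not tested.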

How the results depend on the processing

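Most results kept their direction under the alternatives run, and the exact tests could not pass 0.05 under any. Exceptions follow, and the cause was not tested. With the region read at the peak's 5' end, the 5' UTR share of listed peaks was 4.41%, the distance to the start codon 90.0 nt, and the KO over WT peaks of set 2 were 2. Counting only peaks wholly within 5' UTR exons gave a share of 2.15%, 124 nt, a difference in enriched peaks from CDS of -0.0913 points, 24 recurring sites, and 5 and 1 WT over KO peaks in sets 1 and 2. A log2 threshold of 1 turned the difference from CDS to -0.196 points. Recurring enriched sites numbered 214, 123 and 20 at log2 thresholds of 1, 2 and 4, and 27 to 50 when 1 library was left out, 32 without WT 2 and 27 without KO 2 (an alternative added after seeing the data). WT over KO peaks numbered 166, 60 and 7 in set 1 and 38, 10 and 2 in set 2 at those thresholds, and KO over WT peaks 37, 16 and 1, and 8, 3 and 0. At −log10 p thresholds of 2 and 5 they were 28 and 9, 8 and 1 (WT over KO), 15 and 3, and 5 and 1 (KO over WT). At sites enriched in either library of a set the mean WT minus KO difference was 1.38 (2.60 in set 1, 0.15 in set 2). The miR-1/miR-206 word stood in 0.807% and 1.19% of listed 5' UTR peaks with extensions of 0 and 50 nt, 3.59% as a 6-nt word and 9.88% of enriched peaks. Words of any of 5 families stood in 4.42%, 7.21%, 14.9% and 23.6%. Enriched peaks alone lay 51.2 nt from the start codon. Leaving out each library moved the excess of miR-1/miR-206 words in enriched peaks between 6.49 and 10.5 points. With the library set as a replicate block, the WT minus KO difference in the 5' UTR share of listed peaks was 0.377 points (added after seeing the data). With 1 library a genotype in each set, this equals the difference without the block by construction. Of the 20 leading sites, 15, 14 and 1 were enriched in all 4 libraries at log2 thresholds of 1, 2 and 4, against 10, and 10 and 8 at −log10 p thresholds of 2 and 5. At a log2 threshold of 4 the Ccnk site next to the start codon and that of Ptpa were enriched in 0 libraries and that of Nmrk2 in 2. Set 1 has coarse fold values, and KO 1 holds 29 enriched 5' UTR peaks, so shares in it have wide intervals.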

Other observations

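Some 5' UTR peaks lie over annotated small RNA genes. Between 10 and 13 peaks a library overlapped a microRNA gene on the same strand, among them peaks in Col3a1, Hsp90b1, Glul and Ahsa2, and between 3 and 6 overlapped a small nucleolar RNA gene, in Rpl32, Ddx39b, Ubap2 and 2410002F23Rik. Of the enriched 5' UTR peaks, 1 in KO 2 and none in the other libraries overlapped a microRNA gene, and that 1 was in Col3a1 (log2 fold 3.08). Between 26.4% and 31.3% of the 5' UTR peaks of a library lay within an intron of another transcript on the same strand, and of the enriched ones 26.4% to 34.1%.

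The words of miR-22 and miR-24 were the most common of those searched in listed 5' UTR peaks, in 2.99% to 3.63% and 2.92% to 3.27% of them. Among enriched 5' UTR peaks the miR-22 word stood in 5.41%, 0.99%, 0% and 4.55%, and that of miR-24 in 3.38%, 0%, 3.45% and 0% in WT 1, WT 2, KO 1 and KO 2. Taking 3 counts as the limit, the counts of 0 allow up to 10.3% in KO 1 for miR-22, and up to 2.97% in WT 2 and 3.41% in KO 2 for miR-24.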
